A study of Mus musculus with 8 samples.

Results

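The genes described here are 10 genes of lymphocytes and lymph nodes, followed through the formation of mouse white adipose tissue. They were taken by name, with earlier results of these data known. All 15 of their probes on the array were read at all 8 stages, out of 25697 probes and 16593 named genes. The tissue was developing white fat of the C57BL/6 strain, taken as total RNA on each embryonic day from e15.5 to e18.5 (4 stages) and after birth on days P0, P2, P5, P12 (4 stages). No genotype other than the strain and no treatment is given for any group. Each stage was 1 pool on 1 Illumina MouseRef-8 BeadChip array, a glass array of bead-bound probes. A pool held RNA of at least 3 embryos by one label and of 4 by another. Neither the depot nor any removal of lymph nodes is stated in the labels.

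T lymphocytes recognise antigen through a receptor whose signal is carried by the CD3 chains, and B lymphocytes through an antibody receptor whose signal is carried by CD79A and CD79B. Lymph nodes form where cells that carry lymphotoxin meet stromal cells with its receptor, which then make chemokines that draw T cells and B cells into separate zones. Lymphocytes enter a node through high endothelial venules, whose surface glycoproteins bind L-selectin. In mice, some white fat depots surround lymph nodes, and the inguinal depot also holds the mammary gland in females.

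All values are log2 intensities as the authors processed them, and a difference of 1 is 2-fold. Values ran from 6.66 to 15.10, the median of each array was 6.99, and all arrays had the same distribution, so a change in total signal cannot be seen. Levels under 7.5 are called near the floor, and where one side of a comparison lies there, 7.5 takes its place and the fold is a lower bound. No stage has a replicate, so a difference between stages is a difference between single pools, with no test. The number of arrays limits the precision. Tests over the whole course used 7446 features, 1 probe per gene, that reached 7.5 on at least 2 arrays. The P5 and P12 arrays stood apart from the other 6 in a few features: 8 lay at 9 or more on all 6 arrays up to P2 and under 7.5 at both P5 and P12, among them Tomm22, and 3 did the opposite. None of the 10 genes was among them, but this rule could not mark a gene above 7.5 at both P2 and P12. All 9 of the genes that were tested were above it at both, and Cd79a was not tested. Whether such a difference between arrays touches the 10 genes was therefore not tested. The e15.5 and P0 pools had the highest skeletal muscle markers, with means of 12.31 and 11.45 against 7.58 to 9.04 elsewhere, and the highest epidermis markers, with means of 10.44 and 9.63.

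Most of the 10 genes were near the floor in the embryo, higher at P2, low again at P5 and highest at P12. For 9 of the 10 genes, all but Ccl21a, P2 and P12 were the 2 highest of the 8 arrays. Of all features tested, 2.97% had this order, and 3.68% of all features with no intensity minimum. With levels under 7.5 set to 7.5, the median difference of the 10 genes was 0.92 from P0 to P2, -0.95 from P2 to P5 and 1.71 from P5 to P12, and that of all features tested was 0 at each step. Of the 10 genes, Cd79a was never above the floor, and Cd3g, Cd3d, Cd8b1 and Ltb were among the features tested only through P2 and P12. For these genes the intensity minimum fixed P2 and P12 as the 2 highest arrays. The 10 genes were also chosen with earlier results of these data known, so the count of 9 and these medians are a description. In RNA from whole tissue, fewer cells of a type and less RNA per cell cannot be told apart.

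**Figure D1:**
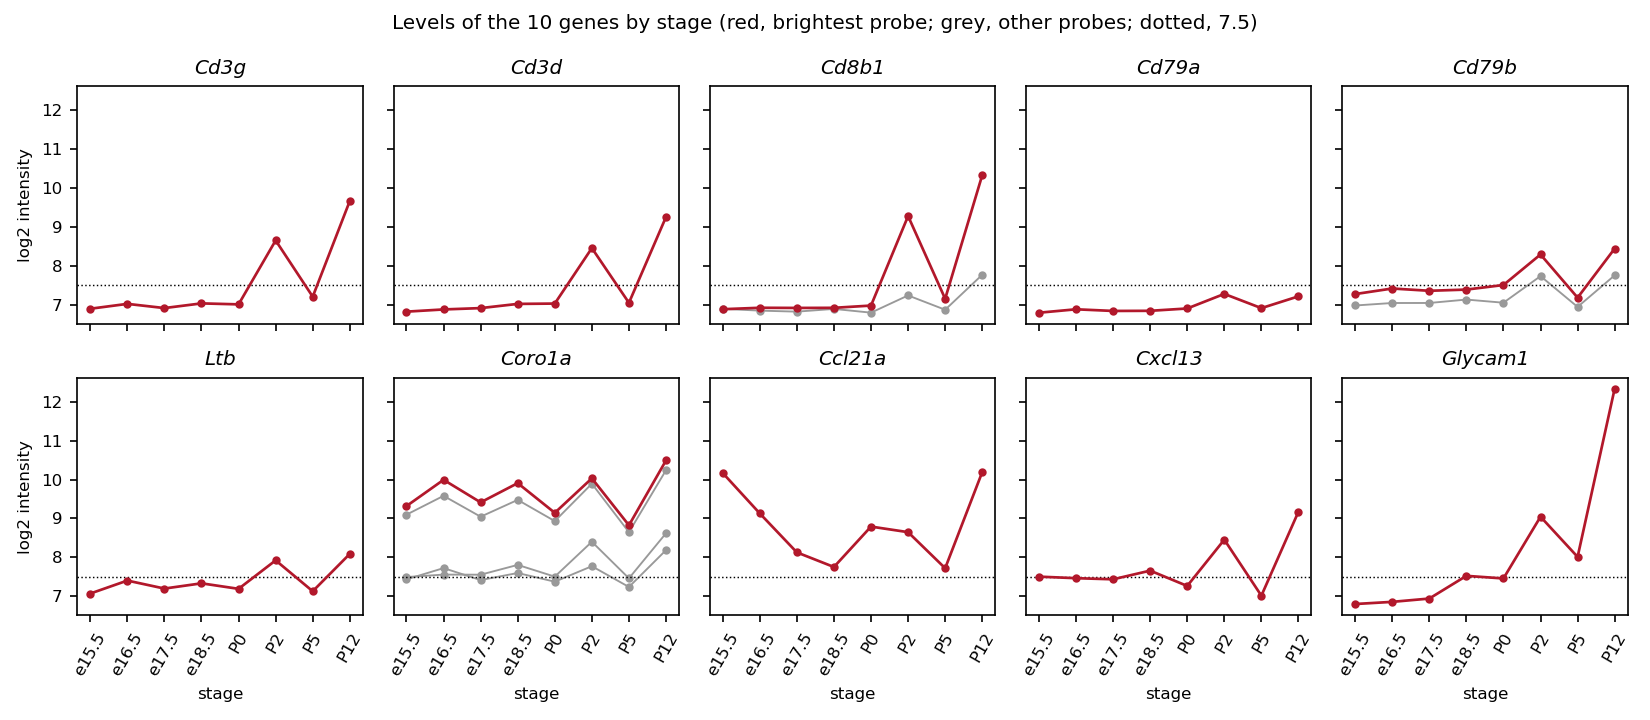
Level of the probe used for each of the 10 genes (log2 intensity, vertical axis) at the 8 stages (horizontal axis), 1 pool per point and no error bars because no stage was replicated. P2 and P12 are the 2 highest points for 9 of the 10 genes, and Ccl21a is high at e15.5 as well as at P12.

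Cd3g and Cd3d encode the gamma and delta chains of CD3. Their start sites lie 1355 bases apart on mouse chromosome 9 and point away from each other, with Cd3e, the gene of a further CD3 chain, as the next neighbour of Cd3d. The 250 bases before each start are shown because the pair shares this stretch of chromosome and the same course. They are given 5′ to 3′ on the strand of each gene, from RefSeq (GRCm38.p6), at chr9:44980432-44980681 (minus strand) for Cd3g and chr9:44981536-44981785 (plus strand) for Cd3d. Neither holds the motifs searched, so no base is in capitals.
Cd3g: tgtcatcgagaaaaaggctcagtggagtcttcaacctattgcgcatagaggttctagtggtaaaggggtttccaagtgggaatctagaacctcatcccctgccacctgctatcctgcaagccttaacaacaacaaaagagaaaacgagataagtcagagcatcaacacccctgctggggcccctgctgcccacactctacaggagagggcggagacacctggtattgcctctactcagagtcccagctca
Cd3d: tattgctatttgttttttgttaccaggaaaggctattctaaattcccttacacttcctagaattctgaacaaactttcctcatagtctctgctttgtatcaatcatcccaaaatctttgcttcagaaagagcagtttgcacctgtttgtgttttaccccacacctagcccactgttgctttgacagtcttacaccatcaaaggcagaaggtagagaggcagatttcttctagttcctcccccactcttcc

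Cd3g measured 6.89, 7.02, 6.91, 7.03 and 7.003 from e15.5 to P0, then 8.65 at P2, 7.20 at P5 and 9.66 at P12. Cd3d measured 6.82, 6.87, 6.91, 7.02 and 7.02 over the same first 5 stages, then 8.45, 7.04 and 9.25. Both genes were near the floor on 6 arrays and above it at P2 and P12 alone. Cd3g was at least 2.21-fold higher at P2 than at P0 and at least 4.47-fold higher at P12 than at P5. Cd3d was at least 1.93-fold and at least 3.36-fold higher in the same comparisons. From P2 to P12 the difference was 1.01 for Cd3g and 0.80 for Cd3d, with both levels measured.

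Cd8b1 encodes the beta chain of CD8, the co-receptor of cytotoxic T cells. Its brighter probe measured 6.88, 6.92, 6.91, 6.91 and 6.97 from e15.5 to P0, then 9.27 (P2), 7.15 (P5) and 10.32 (P12). Its P2 level was at least 3.41-fold that at P0, and the P12 level at least 7.07-fold that at P5. Its dimmer probe had the same order at P2, P5 and P12, with 7.23, 6.87 and 7.76, and reached 7.5 on P12 alone. The neighbouring gene Cd8a, which encodes the alpha chain, was near the floor on all 8 arrays, at 6.79 at P2 and 6.82 at P12.

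Cd79a and Cd79b encode the signalling chains of the B cell receptor. Cd79a stayed under 7.5 on all arrays and was not tested. It measured 6.79 to 6.90 from e15.5 to P0, then 7.27 (P2), 6.91 (P5) and 7.21 (P12). Its 2 highest arrays were P2 and P12, within 0.06 of each other, but a level this near the floor carries no fold. Cd79b measured 7.27, 7.41, 7.35, 7.38 and 7.5005 up to P0, then 8.28 (P2), 7.18 (P5) and 8.44 (P12). Its P2 level was 1.72-fold that at P0 and its P12 level at least 1.91-fold that at P5. The other Cd79b probe gave 7.73, 6.94 and 7.75 at P2, P5 and P12. For Cd79b the P2 and P12 pools were close, with a difference of 0.15. The brightest probes of Cd3g, Cd3d and Cd8b1 lay 0.80 to 1.05 higher at P12 than at P2. The dimmer Cd8b1 probe lay 0.53 higher, from a P2 level near the floor. These differences rest on 1 pool each and were not tested.

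Ltb encodes lymphotoxin beta, the membrane-bound ligand that lymphocytes and lymphoid tissue inducer cells present to stromal cells. It measured 7.07, 7.40, 7.20, 7.33 and 7.19 up to P0, then 7.92 (P2), 7.13 (P5) and 8.09 (P12). It was above the floor at P2 and P12 alone, at least 1.34-fold higher at P2 than at P0 and at least 1.505-fold higher at P12 than at P5. The lymphotoxin receptor signals through NF-kB. The 250 bases before the Ltb start (RefSeq, GRCm38.p6, 5′ to 3′, plus strand, chr17:35194257-35194506) are shown because they hold an NF-kB motif, in capitals.
Ltb: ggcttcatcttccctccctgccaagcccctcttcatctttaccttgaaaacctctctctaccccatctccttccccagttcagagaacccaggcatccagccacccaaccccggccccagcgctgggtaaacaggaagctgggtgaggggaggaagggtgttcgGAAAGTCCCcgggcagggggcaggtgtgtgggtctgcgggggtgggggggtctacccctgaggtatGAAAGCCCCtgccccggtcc

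The NF-kB motif searched was GGGNNTTTC on either strand. It matched the Ltb promoter at 2 places, GAAAGTCCC from position -86 and GAAAGCCCC from position -20 before the start, both as the reverse strand. Of 32851 promoters of the same length 3.72% held it, and of the 8 genes with a promoter entry Ltb alone did. A motif of the B cell factor EBF, searched as CCCNNGGG on either strand, was in 11.8% of promoters and, of the 8 genes, in Coro1a alone. The motifs were searched separately and their matches in these genes do not overlap. A match describes letters, not a site of binding. Cd8b1 and Cd79b had no entry.

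Coro1a encodes coronin 1A, an actin-binding protein of leukocytes that naive T cells need to survive. It was well above the floor on all arrays: 9.32, 9.99, 9.41, 9.91 and 9.14 from e15.5 to P0, then 10.03 (P2), 8.82 (P5) and 10.49 (P12). P2 exceeded P0 1.85-fold and P5 lay 2.31-fold below P2, but the e16.5 and e18.5 pools were nearly as high as P2. All 4 Coro1a probes had P12 highest, P2 next and P5 lowest.

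Ccl21a and Cxcl13 encode chemokines of lymphoid stroma. CCL21 draws T cells and dendritic cells that carry CCR7, and CXCL13 draws B cells that carry CXCR5. Cxcl13 measured 7.51, 7.47, 7.44, 7.66 and 7.27 up to P0, then 8.45 (P2), 7.02 (P5) and 9.17 (P12). It was at least 1.94-fold higher at P2 than at P0 and at least 3.19-fold higher at P12 than at P5. Its course followed that of the T cell genes.

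Ccl21a was the exception. It measured 10.17 at e15.5, 9.13 at e16.5, 8.13 at e17.5 and 7.75 at e18.5, and after birth 8.79 (P0), 8.65 (P2), 7.72 (P5) and 10.19 (P12). It was as high in the first embryonic pool as at P12, and P2 lay 0.14 below P0. Its probe was above the floor on all 8 arrays. The near-identical genes Ccl21b and Ccl21c gave the same shape, with 9.26 and 9.33 at e15.5, 7.26 and 7.38 at P5, and 9.23 and 9.16 at P12, and such copies may share signal. The skeletal muscle and epidermis markers were also highest in the e15.5 pool; their part in the Ccl21a level was not tested. The receptors of these chemokines, Ccr7 and Cxcr5, were near the floor on all arrays, the highest level of either being 7.19.

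Glycam1 encodes a mucin-like glycoprotein that high endothelial venules display to L-selectin and that the mammary gland secretes into milk. It measured 6.80, 6.86, 6.94, 7.53 and 7.46 from e15.5 to P0, then 9.04 (P2), 8.01 (P5) and 12.33 (P12). P12 was 9.78-fold above P2 and 4.32 above P5 on the log2 scale, with both sides of each above the floor. P5 was 2.04-fold below P2 and, unlike in the T cell genes, still above 7.5.

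**Figure D2:**
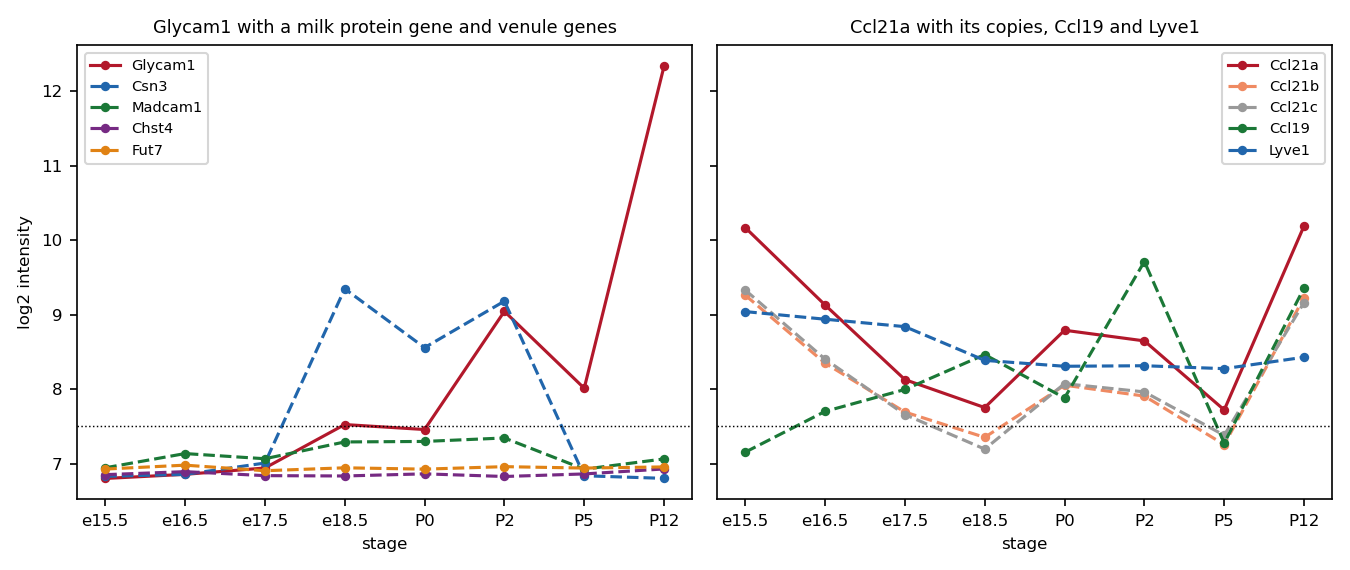
Levels (log2 intensity, vertical axis) of Glycam1 and Ccl21a at the 8 stages (horizontal axis) beside Csn3, 3 venule genes, the Ccl21a copies, Ccl19 and Lyve1, 1 pool per point, with a dotted line at 7.5. Glycam1 reached 12.33 at P12, where the milk protein gene Csn3 measured 6.80, and Ccl21a, Ccl21b and Ccl21c shared high levels at e15.5 and P12.

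With levels under 7.5 set to 7.5, 3 of the 10 genes were 2-fold or more higher at P2 than at P0, Cd3g, Cd8b1 and Glycam1, against 0.752% of all features tested. From P2 to P5, Cd3g, Cd8b1, Coro1a and Glycam1 were lower by that much, 4 of the 10, against 1.67%. From P5 to P12, 7 of the 10 were higher, all but Cd79a, Cd79b and Ltb, against 1.2%. The full course of up, down and up was met by Cd3g, Cd8b1 and Glycam1, and by 10 features in all (0.134%). On the deposited values, levels near the floor included, the counts were 5 of the 10 from P0 to P2 (0.846% of features), 7 from P2 to P5 (2.14%), 8 from P5 to P12 (1.32%) and 5 for the full course (13 features, 0.175%), with Cd3d and Cxcl13 added to the course. Cd3g, Cd3d, Cd8b1 and Ltb entered the tested features only through P2 and P12. The intensity minimum thus fixed the direction of their steps, though not a size of 1 log2, and Ltb met no count at that size. On the deposited values, the other 8 features with this course were Fcmr, Cytip, Il4i1, Ccl19, Tbc1d10c, Cd52 and 2 unnamed probes, named here after their values were seen. Of any size, the course was found in 9 of the 10 genes and in 895 of the 7446 features.

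**Figure D3:**
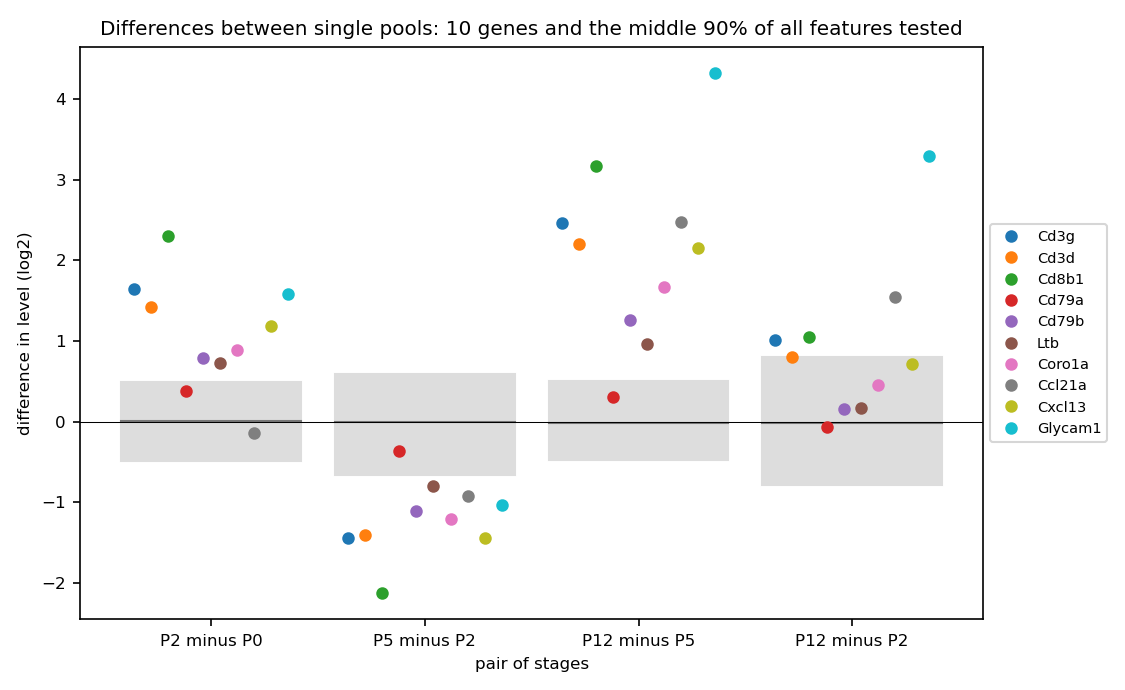
Differences between single pools (log2, vertical axis) for the 10 genes (points) at each pair of stages (horizontal axis), with the span from the 5th to the 95th percentile of all 7446 features as a bar. Differences are of deposited values, levels near the floor included; from P5 to P12 the bar runs from -0.47 to 0.50 and the median of the 10 points is 2.18.

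Over the whole course, 3 of the 9 genes tested rose with stage and none fell, by limma's moderated test on stage order. Of all features, 18.3% rose and 20.7% fell. Glycam1 rose by 0.60 log2 per stage (SE 0.16, limma adjusted p = 0.0190). Cd3d rose by 0.27 (SE 0.09, limma adjusted p = 0.0457) and Cd3g by 0.30 (SE 0.10, limma adjusted p = 0.0463). Cd3d and Cd3g reached 7.5 at P2 and P12 alone, so they were tested only through the pools where they were high. The count of 3 of 9 beside 18.3% is therefore a description. Both CD3 calls were lost without any one of e15.5, e16.5, e17.5, e18.5, P2 or P12, and without P12 the slopes were 0.14 (limma adjusted p = 0.246) and 0.15 (limma adjusted p = 0.249). They were also lost with no intensity minimum (limma adjusted p = 0.112 for Cd3d and 0.114 for Cd3g, same slopes). With the muscle markers as a covariate the slopes were 0.28 and 0.31 (limma adjusted p = 0.130 and 0.137), and with the epidermis markers 0.29 and 0.33 (limma adjusted p = 0.114 and 0.118). Glycam1 kept its call without each array in turn, with a slope of 0.30 without P12, and lost it with no intensity minimum (limma adjusted p = 0.0543) and with the skeletal muscle or epidermis markers as a covariate (limma adjusted p = 0.0722 and 0.0734), while its slope was 0.60, 0.61 and 0.62 in these fits. Cd8b1 had a slope of 0.39 that missed the threshold (limma adjusted p = 0.0539). Without P5, Cd8b1, Cd79b, Ltb and Cxcl13 passed it, with limma adjusted p of 0.0190, 0.0166, 0.0325 and 0.0352. Coro1a (slope 0.04, limma adjusted p = 0.695) and Ccl21a (slope -0.05, limma adjusted p = 0.785) had no slope that the test could tell from 0. A line describes a course of up, down and up poorly, and the scatter around it counts as error.

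Between the 4 embryonic and the 4 postnatal arrays, limma called 0 of the 9 genes and 1 of the 7446 features as higher after birth (0.0134%), and 0 as lower (0%). At an unadjusted p of 0.05, 1 of the 9 passed, and 1081 features were higher and 1368 lower. Glycam1 had the largest difference, from 7.03 ± 0.33 (SD, n = 4) to 9.21 ± 2.18 (SD, n = 4), a difference of 2.18 (SE 0.95, limma adjusted p = 0.152). Cd3g went from 6.96 ± 0.07 (SD, n = 4) to 8.13 ± 1.26 (SD, n = 4), with limma adjusted p = 0.174. The wide postnatal spread holds the low P0 and P5 and the high P2 and P12 pools.

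Other T cell genes showed the same order in part. Of 16 listed T cell markers 13 were on the array, and P2 and P12 were the 2 highest arrays for 9 of them, against 3.68% of all features with no intensity minimum. Cd3e rose with stage by 0.25 (SE 0.08, limma adjusted p = 0.0444) and measured 7.05, 7.98, 7.09 and 9.30 at P0, P2, P5 and P12. Cd2, an adhesion receptor of T cells, rose by 0.15 (SE 0.04, limma adjusted p = 0.0293). Cd3e and Cd2 reached 7.5 at P2 and P12 alone, so they were tested only through the pools where they were high. Of the 4 T cell markers tested, Bcl11b alone did not have P2 and P12 highest. It measured 9.87 at e15.5, its highest array, 7.86 at P2 and 8.80 at P12 (slope -0.06, limma adjusted p = 0.745). Cd4, Cd5, Cd8a, Trat1 and Skap1 stayed near the floor on all arrays. Ccl5, a chemokine of activated T and NK cells, rose by 0.27 (SE 0.09, limma adjusted p = 0.0486) and was likewise tested only through P2 and P12. The NK and cytotoxic markers Gzma, Gzmb, Klrb1c, Ncr1 and Xcl1 stayed near the floor. P2 and P12 were the 2 highest arrays for 4 of 9 markers of this list, Nkg7, Klrd1, Ccl5 and Xcl1, against the same 3.68%. Nkg7 measured 7.47 at P2 and 8.02 at P12, and Klrd1 7.31 and 7.79. Prf1 lay between 7.63 and 8.13 on all arrays without this order. None of the 9 thymus and immature T cell markers measured reached 7.5 on any array, with a range of 6.73 to 7.37.

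Of 12 B cell markers on the array, 9 stayed near the floor throughout, among them Ms4a1, Cd22 and Pax5, with a highest level of 7.30. P2 and P12 were the 2 highest arrays for 10 of the 12, against 3.68% of all features with no minimum, but most of these levels lie near the floor, where an order carries little: Cr2 ran from 6.79 to 6.87. Pou2af1, a B cell coactivator, measured 7.02, 7.81, 6.88 and 8.23 from P0 to P12 (limma adjusted p = 0.0914 for its slope). Only 2 of the 12, Pou2af1 and Fcrla, could be tested, and neither passed. Of 5 plasma cell markers, Jchain and Tnfrsf17 stayed near the floor, and neither of the 2 tested, Mzb1 and Irf4, passed.

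Among 11 general leukocyte markers 6 had P2 and P12 highest, against 3.68% of all features with no intensity minimum, and none passed the trend test. Cd52 measured 8.94, 10.48, 8.496 and 10.79 and Cytip 8.62, 9.97, 8.41 and 10.81 from P0 to P12. At e18.5 Cd52 measured 9.47 and Cytip 9.48, each above its P0 and P5 levels. Laptm5 was high throughout, at 12.19 to 13.10. Ptprc, which encodes the leukocyte marker CD45, stayed near the floor at 7.15 or less. In the adipocyte list, Fabp4 likewise stayed at 7.23 or less on all arrays, while Adipoq measured 13.52 at P2. A level near the floor is therefore not read here as absence of a transcript, for Ptprc or for the other markers near the floor. Macrophage markers, whose mean lay between 8.45 and 9.19, had P2 and P12 highest for 0 of 11 genes, a count near the share of 3.68%. Cd163, Lyz2 and C1qa rose with stage.

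Lymph node stroma and vessels were sparsely measured. The chemokine Ccl19, whose gene is next to Ccl21a, measured 7.88, 9.71, 7.28 and 9.36 from P0 to P12, a course like that of Cxcl13. Of the lymphotoxin pathway, Lta, Tnf, Nfkb2, Tnfsf11, Tnfrsf11a and Il7 were near the floor on all arrays, and the receptor gene Ltbr lay between 7.33 and 7.86. Of 6 high endothelial venule genes, Chst4, Fut7 and Madcam1, which serve the L-selectin and integrin ligands of these vessels, were near the floor, and Chst2 fell with stage by 0.11 (SE 0.02, limma adjusted p = 0.0125). Ubd had its P2 level of 7.95 and P12 level of 7.893 highest, but e18.5 was nearly as high, at 7.885. Of the follicular dendritic and reticular stroma genes, Bst1, Cr2, Fcamr and Il7 were near the floor, and Vcam1 and Pdpn fell (limma adjusted p = 0.0230 and 0.0013). Of the lymphatic endothelial genes, Lyve1 and Reln fell (limma adjusted p = 0.0151 and 0.0055), and Flt4, Stab2, Foxc2 and Nrp2 were near the floor on all arrays. P2 and P12 were highest for 0 of 8, near the share of 3.68% of all features with no intensity minimum.

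These marker lists move only in part with the 10 genes. Most T cell and B cell markers, 6 of 11 leukocyte markers and Ccl19 were highest in the P2 and P12 pools with them. So were 4 of 9 NK and cytotoxic markers. Many of these levels were under 7.5. Cxcr5 had the same order, with 7.15 and 7.19, also near the floor. Chst4, Fut7, Madcam1 and Ccr7 were near the floor without this order, and 0 of the 8 lymphatic endothelial markers had it. Of all features with no intensity minimum 3.68% had it, so a count of 0 in so few genes is near that share. Whether lymph node tissue in the P2 and P12 pools accounts for the levels of the 10 genes was not tested, since no label records node content. Mammary and milk genes did not move with Glycam1 at P12: Csn3 measured 9.35 at e18.5, 9.18 at P2 and 6.80 at P12, Krt8 8.46 and 7.03, and Csn1s2a, Csn2, Wap, Lalba, Elf5 and Cldn3 were near the floor on all arrays. Glycam1, Csn3 and Krt8 were above the floor together at e18.5 (7.53, 9.35 and 8.12) and at P2. Class II genes were mixed: Cd74 rose with stage (slope 0.45, limma adjusted p = 0.0035), at 8.07, 9.24, 9.38 and 11.14 from P0 to P12, while H2-Eb1 went from 8.54 at P2 to 7.08 at P5. Probes of H2-Ab1 disagreed, the brightest giving 8.61, 9.52 and 10.97 from P2 to P12 and another 9.21, 8.40 and 9.73.

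**Figure D4:**
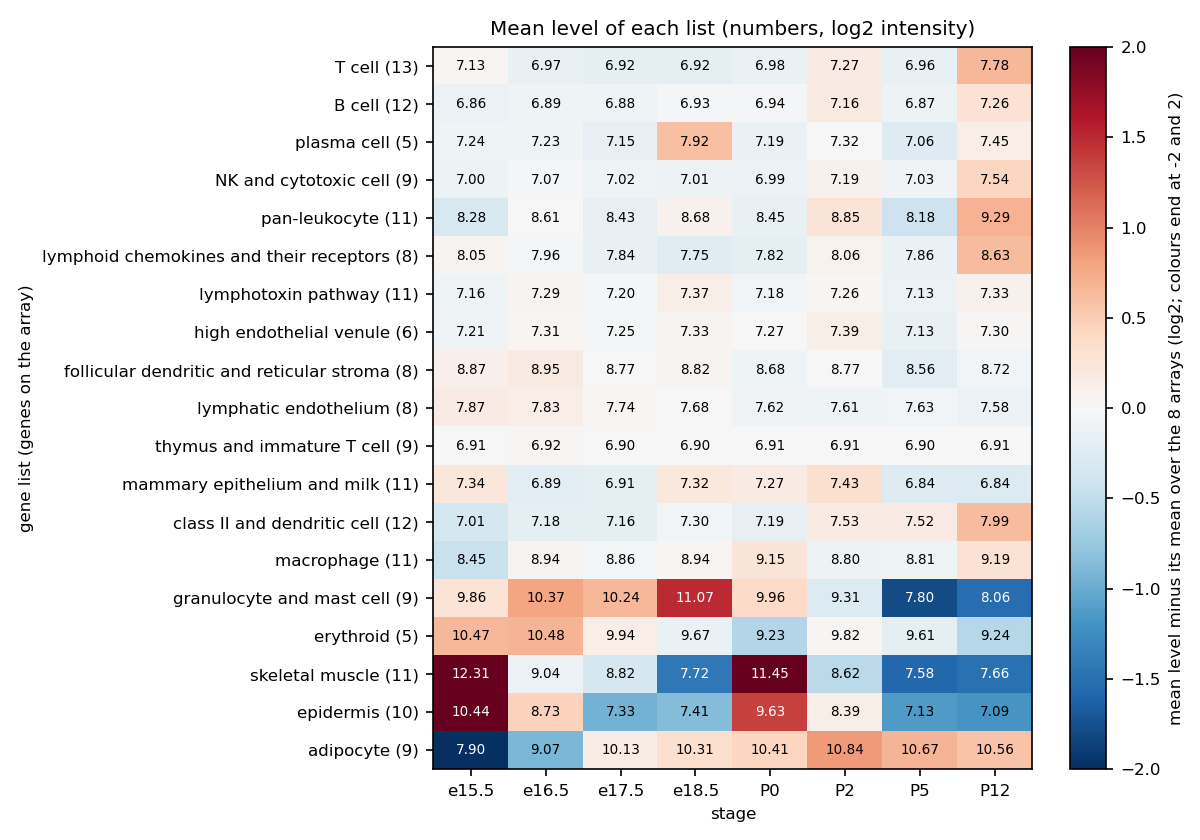
Heat map of marker lists (vertical axis, with the number of genes on the array) by stage (horizontal axis), 1 pool per column; numbers are mean levels (log2 intensity) and colours the difference from the list's mean over the 8 arrays. The T cell list has means of 6.98, 7.27, 6.96 and 7.78 from P0 to P12 and the pan-leukocyte list 8.45, 8.85, 8.18 and 9.29, while the lymphatic endothelium list stays between 7.58 and 7.87.

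The 9 tested genes agreed among themselves to different degrees. As a description over 8 arrays, the Pearson r of each with the mean of the other 8 was 0.983 for Cd3g, 0.980 for Cd3d, 0.975 for Cd8b1, 0.966 for Cxcl13, 0.947 for Cd79b, 0.940 for Ltb and 0.912 for Glycam1. It was 0.730 for Coro1a and 0.442 for Ccl21a. The features outside the 10 genes most like their mean were Tbc1d10c (r = 0.994), Rasal3 (0.985), Cd40 (0.984), Cd3e (0.983), H2-M2 (0.983), Fcmr (0.982), Itgb7 (0.981), Ccl5 (0.980), Cd6 (0.980) and Cd27 (0.973). Among them, Cd6 and Cd27 are lymphocyte surface receptors, Fcmr the receptor for IgM, and Itgb7 an integrin chain of lymphocyte homing. All of these features but Tbc1d10c and Cd40 reached 7.5 at P2 and P12 alone. They were searched only through the pools where the mean of the genes is high. Cd3g, Cd3d, Cd8b1 and Ltb entered that mean in the same way. The intensity minimum thus favoured a high r, and the likeness is a description. All 8 points of each r share the same arrays. Tbc1d10c measured 8.12, 9.23, 7.94 and 10.12 at the stages from P0 to P12.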

How the data were processed

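Per the labels' protocols, RNA of 8 pools, 1 per stage, was turned into biotin-labelled cRNA for Illumina MouseRef-8 arrays, and BeadStudio extracted the data. The authors deposited log2 intensities. The log base was read from the range, and the labels do not state the background treatment or normalization. A second deposited table of unnormalized signals was not used, because its 16 per-sample columns match no label.

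GEO's platform annotation named the probes (23978 of 25697 with 1 gene). The brightest probe stood for each gene (18312 features), and 7446 reached 7.5 on at least 2 arrays. Slopes over stage order and the embryonic to postnatal difference were fitted with limma 3.58.1 in R 4.3.3 (moderated variances, two-sided, Benjamini-Hochberg over 7446 features, threshold 0.05). These fits were tested on simulated data. Promoters came from RefSeq (GRCm38.p6); 8 of the 10 genes had an entry, and short motifs were searched as letters, chosen after the values were seen. Steps between single pools have no test and were counted at 1 log2.

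The genes named are the 10, the list genes past the trend threshold (otherwise the highest mean), list markers near the floor and the 10 most alike features; others were chosen after their values were seen. The genes and lists were chosen with earlier results of these data known. Alternatives covered the intensity minimum, the probe rule, the variance model, array weights, marker covariates and leaving out arrays.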

Additional observations from a re-analysis of the deposited data

Results flagged for a closer look

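Within the 4 embryonic arrays, the e15.5 level of Cd8b1 stood apart below the others: its gap to the nearest array was 0.89 of the whole range, above the critical value of 0.829 for 4 values. The levels were 6.88 at e15.5 and 6.91 to 6.92 at the other 3 stages, all near the floor. Of 20 groups checked, this was the only one, and chance marks about 1 in 20.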

How the results depend on the processing

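No paired analysis was possible because each stage has 1 sample and the stages share no replicate. The planned background correction, detection filter and chip block were not run, since the columns of the unnormalized table match no label. Of all features, 1363 rose with stage; 746 did with the muscle markers as covariate, 673 with the epidermis markers, 563 without P5 and P12, and 891 to 1458 without single arrays. Falls numbered 1542, and 916 with the epidermis markers, 529 without P5 and P12, and 999 to 1600 without single arrays. Features higher after birth numbered 1, and 3 with no minimum, 118 with 7.5 on all 8 arrays, 734 with array weights, 172 and 370 with the muscle and epidermis markers, 4 without e15.5 and P0, 0 without P5 and P12, and 0 to 805 without single arrays. Features lower numbered 0, and 1 with no minimum or with every probe kept, 159 with 7.5 on all arrays, 1064 with array weights, 181 and 415 with the markers, 2 without e15.5 and P0, and 0 to 1075 without single arrays. The Ccl21a slope of -0.05 reversed to 0.00416 with array weights, 0.0938 and 0.0996 with the muscle and epidermis markers, and 0.12 without e15.5 and P0 (-0.27 to 0.12 without single arrays). The Coro1a slope reversed to -0.0181 with the muscle markers (-0.0597 to 0.12 without single arrays). The Ccl21a birth difference reversed to -0.0755 without P5 and P12 (-0.41 to 0.50 without single arrays). That of Coro1a reversed to 0.15 with the mean of probes, 0.10 with array weights and 0.0113 without e15.5 and P0 (-0.32 to 0.23 without single arrays). The causes were not tested. The Glycam1 call was lost with no minimum (limma adjusted p = 0.0543) and with the muscle or epidermis markers (limma adjusted p = 0.0722 and 0.0734), with slopes of 0.60 to 0.62 against 0.60. Those of Cd3g and Cd3d were lost under the same 3 settings, with array weights, and without either pair of arrays, with limma adjusted p from 0.0527 to 0.146; their slopes were 0.25 to 0.36 in these fits, against 0.30 and 0.27. At 0.5 log2, 368 features and 8 of the 10 genes were up from P0 to P2, 545 features down from P2 to P5, 372 up from P5 to P12, and 42 features and 8 genes had the full course. With levels under 7.5 set to 7.5, 3 of the 10 genes were up from P0 to P2, 4 down from P2 to P5 and 3 had the full course. With no minimum, 674 of 18312 features (3.68%), 1 probe per gene, had P2 and P12 highest. With every probe kept 14 of 15 probes of the 10 genes did, with Coro1a, Cd79b and Cd8b1 counted more than once. No share of all probes stands beside that count, so it is a description. The analyses without pairs of arrays, those with levels set to 7.5, and all alternatives for the order of P2 and P12, were chosen after seeing the data. Levels near the floor limit what can be said of Cd79a, and of fold sizes for the CD3 genes, Cd8b1, Ltb and Cxcl13.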

Other observations

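Il4i1, which encodes an amino acid oxidase of antigen-presenting cells, went up, down and up as the CD3 genes did, at 7.72, 9.21, 7.97 and 9.65 from P0 to P12. Unlike the CD3 genes, it was above 7.5 at e18.5, at 8.04. The class II genes H2-Ab1, H2-DMa and H2-DMb1 rose with stage as Cd74 did (limma adjusted p = 0.0051, 0.0105 and 0.0135), for H2-Ab1 on its brightest probe. The probe of Tomm22, a subunit of the mitochondrial import pore, measured 10.34 at P2 and then 7.04 (P5) and 7.12 (P12), and that of H2-T10 from 7.09 to 10.02 and 10.49. Of the marker lists that as a whole did not share the course of the 10 genes, 5 adipocyte genes rose with stage (Adipoq, Lep, Plin1, Lpl and Cebpa). In such lists 3 mast cell genes (Cma1, Cpa3 and Tpsb2) and 2 erythroid genes (Alas2 and Slc4a1) fell, all by limma's trend test. Cebpa alone of the adipocyte list had P2 and P12 as its 2 highest arrays, with 8.60, 8.73, 8.61 and 8.95 from P0 to P12.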
